A study of Mus musculus with 6 samples.

Results

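The 35 collagen chains described here are all genes on the arrays named as a Col chain, after leaving out the 8 chains of the cartilage fibril and of hypertrophic cartilage (Col2a1, Col9a1, Col9a2, Col9a3, Col11a1, Col11a2, Col27a1 and Col10a1). They stand among 35080 gene names on the arrays. By family there were 11 basement membrane chains and their associates, 7 fibrillar, 6 microfibrillar, 6 FACIT (fibril-associated, with interrupted triple helices) and 4 transmembrane chains, and Col28a1, a collagen with von Willebrand factor domains.

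Collagens are secreted or membrane-bound proteins whose chains wind into helical trimers. Fibrillar collagens such as I, III and V build the banded fibres of skin, tendon and bone, collagen IV forms the sheet-like network of basement membranes, and collagen VI forms beaded microfibrils around cells. The FACIT collagens decorate the surface of fibres, and a further group spans the cell membrane. In a developing joint, cartilage is built from a separate set of fibril collagens, and the tissues around it use the families named above.

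The interzone is the layer of flattened cells between 2 cartilage elements where a joint will form. Its outer parts border the cartilage and its intermediate part lies between them. RNA of the outer interzone (3 samples) and of the intermediate interzone (3 samples) came from mouse embryos on day 15.5 of gestation, with 1 embryo for each replicate, and was hybridised to 6 one-colour Agilent arrays. The labels give no genotype, strain, treatment, sex or joint, and the sources used here do not say how the layers were separated. No spot was saturated, and between 35.6% and 53.4% of spots on the outer arrays and between 45.1% and 52.8% on the intermediate arrays were well above background. Outer replicate 1 was the dimmest array. Gdf5, a growth factor that marks the interzone, had a mean level of 5.69 in both groups, with an SD of 1.07 in the outer and 0.89 in the intermediate group. Some other interzone markers differed between the groups, as given below. A level is the log2 of the processed signal after division by the 75th percentile of its array, so 0 means as bright as that percentile. Levels of different genes come from different probes, so their order gives no order of abundance, and it served only to choose which genes have each value printed. A difference is the outer mean minus the intermediate mean on this log2 scale, with n = 3 in each group. Since the samples are bulk tissue, fewer cells of a type and less RNA per cell cannot be told apart.

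Of the 35 chains, 27 were bright enough to be tested, that is, well above background on every array of one or both groups, and 23 were measured on all 6 arrays. At a limma p of 0.05, adjusted over all 18003 genes tested, 0 chains were higher in the outer interzone and 3 were lower, namely Col4a1, Col4a2 and Col18a1, all of basement membranes. Among all genes tested, 4.05% passed in either direction, 1.57% as higher and 2.48% as lower in the outer interzone. The chains that were lower thus made up a larger share of the 27 than such genes did of all genes, and no test was made of this. At an unadjusted limma p of 0.05, 11 of the 27 chains passed, beside 3793 of all 18003 genes tested. Of these chains, 6 were basement membrane, 2 fibrillar, 0 microfibrillar, 1 FACIT and 2 transmembrane chains. Col4a4 and Col23a1 are among them, and each was tested only through the group where it was higher. For 11 of the 27 chains no outer value lay within the range of the intermediate values or the reverse, beside 27.1% of all genes tested. The median difference of the 27 chains was 0.07, beside 0.10 for all genes tested. These 2 medians moved together, to -0.32 for the chains and -0.29 for all genes, when each array was scaled to its median, so small differences have no direction that holds under both scalings. That scaling also changed the calls over all genes to 158 higher and 937 lower, against 282 higher and 447 lower at the 75th percentile.

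**Figure D1:**
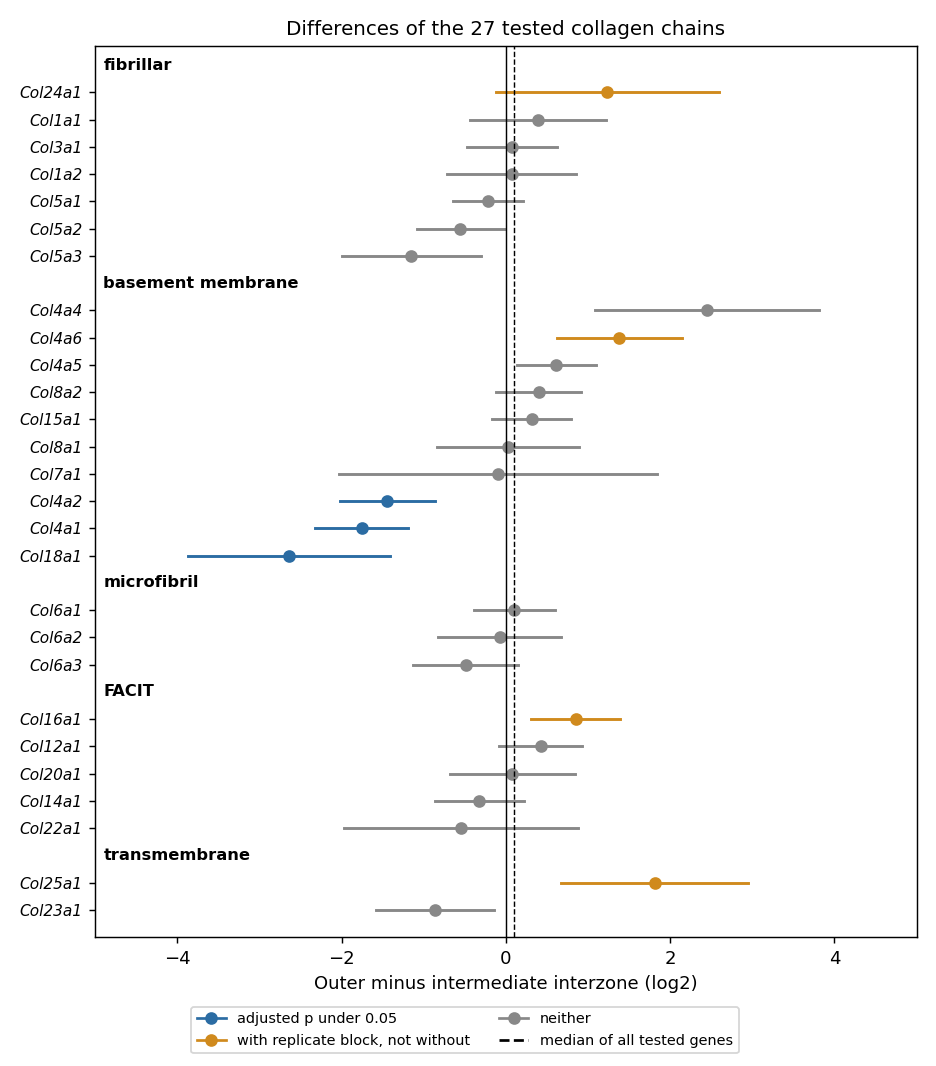
Difference in level between outer and intermediate interzone (log2, x axis) for the 27 tested collagen chains by family, with points for the differences and bars for 95% confidence intervals (limma). The 3 blue chains, Col4a1, Col4a2 and Col18a1, lie to the left of 0 and passed at adjusted p 0.05, the 4 orange chains lie to the right of 0 and passed with the replicate number as a block and not without it, and the dashed line marks the median of all tested genes at 0.10.

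Same-numbered outer and intermediate samples deviated from their group means together, and when limma took that number as a block, 4 chains were higher and 3 were lower in the outer interzone. The 4 were Col4a6, Col16a1, Col24a1 and Col25a1, and the 3 were again Col4a1, Col4a2 and Col18a1. With this block, 9.09% of all genes tested passed in either direction, 4.64% as higher and 4.44% as lower. With quantile normalization and this block together, 0 chains passed. The arrays came from 2 slides, of which the first carried every intermediate array together with outer replicate 1, and the second carried outer arrays alone. With slide as a block, the difference is that of outer replicate 1, the dim array, from the 3 intermediate arrays. It assumes that this lone outer sample varies like the others and describes that array, not the outer group. Its limma calls were 3 chains higher (Col4a4, Col4a6 and Col16a1) and 2 lower (Col4a1 and Col18a1), beside 2.67% and 4.08% of all genes and 6.75% in either direction, and they are not counted as support for any chain.

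Collagen IV is assembled from 6 chains, each with its own gene. Col4a1 and Col4a2 encode the chains found in nearly all basement membranes, those of blood vessels included, whereas the chains of Col4a3, Col4a4, Col4a5 and Col4a6 occur in fewer tissues. The levels of Col4a1 were 3.05, 3.12 and 3.24 in the outer samples (replicates 1, 2 and 3) and 5.19, 4.41 and 5.08 in the intermediate samples. The outer samples lay close together and all below the lowest intermediate sample. Col4a1 was 3.38-fold lower in the outer interzone, with a difference of -1.76 ± 0.24 (SE) and an adjusted p of 0.0168 in limma. Its probe covers bases 11199009 to 11199068 of chromosome 8 (mm9). Within same-numbered samples the difference was -2.14, -1.29 and -1.84.

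Col4a2, whose chain joins that of Col4a1 in the same trimer, had levels of 2.95, 3.12 and 2.97 in the outer samples and 4.83, 3.98 and 4.57 in the intermediate samples. Again all outer samples were below all intermediate samples, and intermediate replicate 2 came nearest to them. Col4a2 was 2.72-fold lower in the outer interzone, with a difference of -1.44 ± 0.24 (SE) and an adjusted p of 0.0269 in limma, and its probe covers bases 11448840 to 11448899 of chromosome 8 (mm9). With slide as a block the difference of Col4a2 was -1.51 and no longer passed (adjusted p = 0.0573), while that of Col4a1 was -1.84 (adjusted p = 0.0329).

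Col18a1 encodes the chain of collagen XVIII, a basement membrane proteoglycan whose C-terminal fragment is endostatin. Its levels were 0.41, 2.46 and 2.09 in the outer samples and 4.18, 4.01 and 4.69 in the intermediate samples. The groups did not overlap, and outer replicate 1 lay well below the other outer samples. Col18a1 was 6.24-fold lower in the outer interzone, with a difference of -2.64 ± 0.52 (SE) and an adjusted p of 0.0438 in limma. Its probe covers bases 76514926 to 76514985 of chromosome 10 (mm9). A second measured probe of Col18a1 differed by -2.77. The difference was -2.02 without outer replicate 1, where it still passed, and -3.89 on slide 1, where that replicate is the only outer array.

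None of the 3 calls held in every fit that left out 1 array, while all 3 differences stayed negative. Without intermediate replicate 1, intermediate replicate 3 and outer replicate 3 in turn, none of the 3 passed. The difference of Col4a1 was then -1.61, -1.66 and -1.81 (adjusted p = 0.0611, 0.0808 and 0.0685), and Col4a1 passed without any one of the other arrays. That of Col4a2 was -1.26, -1.39 and -1.42 (adjusted p = 0.0844, 0.124 and 0.0995). That of Col18a1 was -2.70, -2.44 and -2.86 (adjusted p = 0.119, 0.161 and 0.0994). Col4a2 also missed the threshold without outer replicate 1 (0.0554), and Col18a1 without intermediate replicate 2 (0.0997). In the fits without intermediate replicate 1, intermediate replicate 3 and outer replicate 3, limma called 137, 66 and 90 of all genes. Under quantile normalization Col4a1 passed, and Col4a2 (0.0566) and Col18a1 (0.0645) did not. In each of the 3 chains all outer values lay below all intermediate values.

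The other collagen IV chains were singled out after their values were seen, since they lay on the opposite side of 0 to Col4a1 and Col4a2. Col4a6, the partner of Col4a5 in a trimer known from smooth muscle and other basement membranes, had levels of 1.44, 0.20 and 0.65 in the outer samples and -0.52, -0.83 and -0.50 in the intermediate samples. All outer samples lay above all intermediate samples, with outer replicate 1 the highest. The difference of 1.38 (SE 0.32; probe on chromosome X, bases 137599990 to 137600049, mm9) did not pass (limma adjusted p = 0.0663), and it passed with the replicate block (0.0393). On slide 1 alone, with outer replicate 1 as the only outer array, the difference was 2.06. A second measured probe of Col4a6 differed by 0.62.

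Col4a5, mutated in X-linked Alport syndrome of the kidney, had levels of 1.23, 0.62 and 0.80 in the outer samples and 0.18, 0.31 and 0.32 in the intermediate samples. The groups did not overlap, but the difference of 0.61 (SE 0.20) did not pass (limma adjusted p = 0.153, or 0.101 with the replicate block). With arrays scaled to their medians the difference of Col4a5 was 0.22 (adjusted p = 0.569). Col4a4, which forms a trimer with Col4a3 and Col4a5, read -1.20, -3.23 and -3.03 in the outer samples and -5.63, -4.71 and -4.48 in the intermediate samples. It was well above background on 3 outer arrays and on 1 intermediate array, and outer replicate 1 stood above the other outer samples. Since Col4a4 was bright enough to be tested only through the outer group, some difference was built in by the filter, and it is given as a description. It was 2.45 (limma adjusted p = 0.0678), 1.81 without outer replicate 1, 3.74 on slide 1 alone, 2.06 with arrays scaled to their medians and 0.50 with normexp background correction. The adjusted p was 0.0359 with median scaling and 0.168 with normexp. Col4a3 had a signal well above background on no array.

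**Figure D2:**
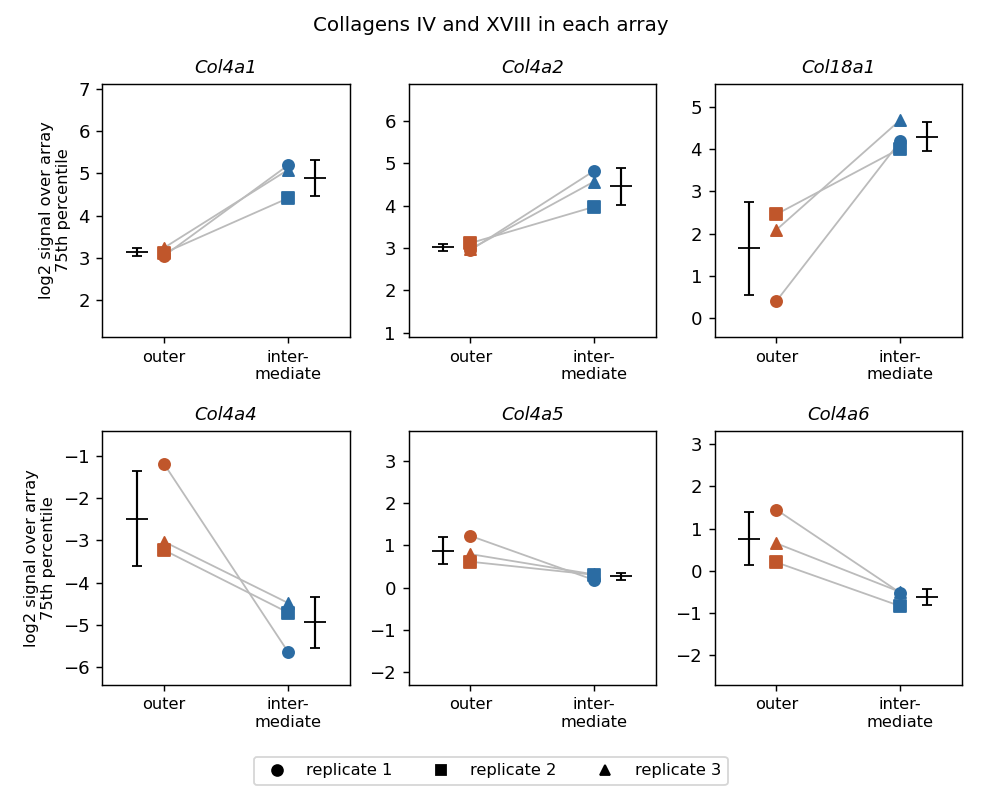
Levels of collagen IV and XVIII chains (log2 of the signal over the 75th percentile of its array, y axis, the same span in each panel) in the outer and the intermediate samples, with marker shapes for replicates 1 to 3, lines joining the same replicate number and black bars for mean ± SD (n = 3). Col4a1, Col4a2 and Col18a1 lie lower in all 3 outer samples than in any intermediate sample, while Col4a4, Col4a5 and Col4a6 lie higher, and outer replicate 1 is the extreme outer sample for Col18a1, Col4a4, Col4a5 and Col4a6.

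A ratio of 2 probes on the same array does not change when the array is divided by a constant, though quantile normalization or normexp can change it. The log2 ratio of the Col4a1 probe to the Col4a2 probe was 0.10, -0.0015 and 0.27 on the outer arrays and 0.36, 0.43 and 0.51 on the intermediate arrays. It was lower on every outer array than on any intermediate array, with a difference of -0.31 in the means, and it was chosen after the values were seen, with no test. A ratio shows unequal change of the 2 chains and not which was more abundant.

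The collagen IV genes lie in head-to-head pairs that are transcribed away from each other, with Col4a1 beside Col4a2, Col4a3 beside Col4a4 and Col4a5 beside Col4a6. Col4a3 had a signal well above background on no array, so its pair could not be compared and is not shown. The sequences at the starts of the other pairs are shown because both members had differences of the same sign. Each window holds 250 bases before and 50 bases after a start of the gene, as given in a RefSeq table on build GRCm38.p6, which need not be its outermost annotated start. The windows are written 5′ to 3′ on the gene's own strand. Col4a1 lies at chr8:11312777-11313076 on the minus strand and Col4a2 at chr8:11312555-11312854 on the plus strand. Col4a6 lies at chrX:141474027-141474326 on the minus strand and Col4a5 at chrX:141475169-141475468 on the plus strand. Capitals mark the letters CCAAT and GGGCGG (a GC box) on either strand, so that ATTGG and CCGCCC mark a match on the opposite strand.
Col4a1: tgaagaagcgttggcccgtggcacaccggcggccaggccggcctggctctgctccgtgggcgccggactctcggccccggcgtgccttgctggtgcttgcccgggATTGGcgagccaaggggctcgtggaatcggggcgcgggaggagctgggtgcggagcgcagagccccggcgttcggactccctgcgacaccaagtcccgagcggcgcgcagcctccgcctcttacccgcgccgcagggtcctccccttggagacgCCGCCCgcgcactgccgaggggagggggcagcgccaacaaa
Col4a2: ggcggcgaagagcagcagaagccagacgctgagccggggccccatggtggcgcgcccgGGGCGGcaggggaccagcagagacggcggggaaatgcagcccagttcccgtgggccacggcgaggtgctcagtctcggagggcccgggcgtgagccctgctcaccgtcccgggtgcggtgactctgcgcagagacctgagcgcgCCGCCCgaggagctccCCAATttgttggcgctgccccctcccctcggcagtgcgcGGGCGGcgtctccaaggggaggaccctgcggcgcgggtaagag
Col4a6: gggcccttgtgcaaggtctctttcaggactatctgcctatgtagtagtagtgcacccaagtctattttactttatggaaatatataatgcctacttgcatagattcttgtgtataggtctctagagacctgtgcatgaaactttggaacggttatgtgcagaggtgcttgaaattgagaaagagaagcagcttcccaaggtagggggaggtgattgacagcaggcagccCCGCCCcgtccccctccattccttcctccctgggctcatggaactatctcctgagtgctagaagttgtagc
Col4a5: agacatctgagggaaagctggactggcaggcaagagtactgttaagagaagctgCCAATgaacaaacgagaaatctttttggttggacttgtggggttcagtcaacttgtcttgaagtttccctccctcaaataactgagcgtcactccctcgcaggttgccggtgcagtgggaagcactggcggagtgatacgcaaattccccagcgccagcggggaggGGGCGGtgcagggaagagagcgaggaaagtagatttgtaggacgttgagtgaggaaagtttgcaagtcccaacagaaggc
The windows of Col4a1 and Col4a2 share 78 bases, whereas 842 bases lie between those of Col4a6 and Col4a5. The window of Col4a1 holds 1 CCAAT and 1 GC box, and that of Col4a2 holds 1 and 3. That of Col4a5 holds 1 and 1, and that of Col4a6 holds 0 and 1. No match overlaps another within a window. The GC box of Col4a1 lies in the bases shared with Col4a2, so the same site is also 1 of the 3 of Col4a2. Of all 32851 windows in the same table, 37.4% hold CCAAT and 35.7% hold the GC box. The letters TATAAA, found in 13.6% of windows, are in none of the 4. Their G+C content is 74.0% for Col4a1, 73.7% for Col4a2, 48.3% for Col4a6 and 52.7% for Col4a5, beside a median of 52.7%. Of the 35 chains, 29 matched a window in this table.

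The remaining basement membrane chains did not pass. Col8a2, a short-chain collagen known from the membrane beneath the corneal endothelium, had levels of 5.64, 5.29 and 5.59 in the outer samples and 5.16, 5.39 and 4.76 in the intermediate samples. The groups overlapped, and the difference was 0.40 (limma adjusted p = 0.344). Col8a1, which can share trimers with it, differed by 0.03 (adjusted p = 0.969), and by -0.36 with arrays scaled to their medians. It was well above background on 2 outer and 3 intermediate arrays. Col15a1, the relative of Col18a1 with a similar C-terminal domain, differed by 0.31 (adjusted p = 0.422) without overlap, and by -0.077 with arrays scaled to their medians. Col7a1, the anchoring fibril collagen of skin, ranged from -1.36 to 0.44 in the outer samples and from -2.17 to 1.00 in the intermediate samples, a difference of -0.10 (adjusted p = 0.956). In all, 10 of the 11 chains of this group were tested, 3 were lower and 7 did not pass, and their median difference was 0.17, beside 0.10 for all genes.

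Values of whole marker lists of other cell types are given here beside those of the collagen IV and XVIII chains. Of 12 endothelial markers, all of them tested, 8 were lower in the outer interzone and 0 higher, and their mean level was between -0.17 and 0.75 on the outer arrays and between 2.11 and 2.51 on the intermediate arrays. Among them, Tek, a receptor of endothelial cells, was well above background on 1 of 3 outer arrays, whereas Kdr, the main endothelial receptor of VEGF, had a difference of 0.82 that did not pass (adjusted p = 0.231). Of 12 leukocyte markers, 11 were lower, with mean levels from -1.32 to 0.45 on the outer arrays and from 2.26 to 3.05 on the intermediate arrays. Of 9 pericyte and smooth muscle markers, 7 were tested, Rgs5 was lower (difference -2.37) and Cspg4 was higher (difference 1.27), with mean levels from -0.21 to 1.26 on the outer arrays and from 1.43 to 1.95 on the intermediate arrays. Of 9 cartilage markers, 8 were higher, with mean levels from 2.66 to 2.83 on the outer arrays and from -1.14 to -0.63 on the intermediate arrays. Of 10 interzone markers, 9 were tested, 2 were higher and 1 was lower. Higher were Wnt4 (difference 3.41) and Erg (difference 0.95), and Gdf6 was lower (difference -1.77). Measured on all 6 arrays were 9 endothelial, 6 leukocyte, 5 pericyte, 6 cartilage and 8 interzone markers. The other tested markers entered through the group where they were higher, so some of their difference was built in by the filter. Their values are part of the counts and, where given, of the means. The part of these cells in the differences of Col4a1, Col4a2 and Col18a1, or in those of Col4a4, Col4a5 and Col4a6, was not tested. On the outer arrays the endothelial, pericyte and leukocyte means were lowest on replicate 1, as was the level of Col18a1.

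**Figure D3:**
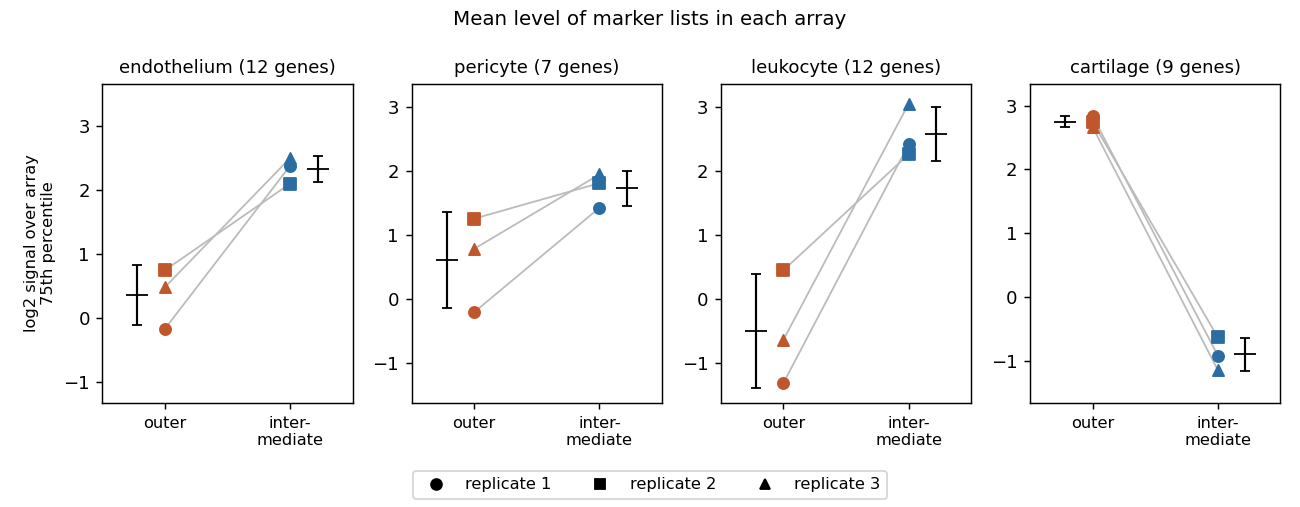
Mean level of the tested genes of 4 marker lists (log2 of the signal over the 75th percentile of its array, y axis, the same span in each panel) in each outer and each intermediate sample, with marker shapes for replicates, lines joining the same replicate number and black bars for mean ± SD (n = 3). The endothelial, pericyte and leukocyte means are lower, and the cartilage means higher, in all 3 outer samples than in any intermediate sample. The means include tested genes that were not well above background on every array.

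Of the 7 fibrillar chains, all were tested and none passed, with a median difference of 0.07. Col1a2, the minor chain of collagen I, had levels of 10.37, 9.46 and 9.76 in the outer samples and 10.32, 9.72 and 9.34 in the intermediate samples. The ranges lay on top of each other, and the difference was 0.07 (95% interval -0.71 to 0.85, limma adjusted p = 0.924). Col3a1, the single chain of collagen III of soft connective tissue, had levels of 9.03, 8.49 and 8.61 in the outer samples and 8.97, 8.54 and 8.40 in the intermediate samples. Its ranges overlapped as well, and the difference was 0.07 (95% interval -0.48 to 0.62, adjusted p = 0.886). In both groups replicate 1 was the highest sample for both chains. Col1a1, the major chain of collagen I, differed by 0.39 (adjusted p = 0.561). With arrays scaled to their medians, Col1a2 and Col3a1 both differed by -0.32 and Col1a1 by -0.00062, and none passed.

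Collagen V is incorporated into collagen I fibres and limits their width, and its 3 chains all had negative differences, of which none passed. Col5a1 differed by -0.22 (adjusted p = 0.531) and Col5a2 by -0.55 (adjusted p = 0.220), and the groups did not overlap for Col5a2. Col5a3, whose chain replaces one of the common chains in some tissues, was the farthest from 0 and was singled out for that. Its levels were 2.74, 2.98 and 3.63 in the outer samples and 4.72, 3.60 and 4.48 in the intermediate samples. The groups overlapped by outer replicate 3 and intermediate replicate 2, and the difference was -1.15 (SE 0.36, limma adjusted p = 0.133). With the replicate block the adjusted p was 0.0582 for Col5a2 and 0.0776 for Col5a3.

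Col24a1, a minor fibrillar chain known from developing bone and cornea in the mouse, was singled out as the fibrillar chain with the highest positive difference. Its levels were 2.03, 0.51 and 1.54 in the outer samples and 0.70, -1.05 and 0.72 in the intermediate samples. The groups overlapped, since outer replicate 2 lay below intermediate replicates 1 and 3, but the outer sample was higher within each replicate number, by 1.33, 1.56 and 0.81. The difference of 1.23 had an SE of 0.58 without the block (limma adjusted p = 0.276) and of 0.18 with it (adjusted p = 0.0368). None of the 8 bone markers was well above background on every array of a group, so none was tested. Of these, 2, Runx2 and Bglap, had a signal well above background on no array. Ibsp was well above background on 1 outer and 1 intermediate array, and read 2.51 in outer replicate 3 and 3.51 in intermediate replicate 3.

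**Figure D4:**
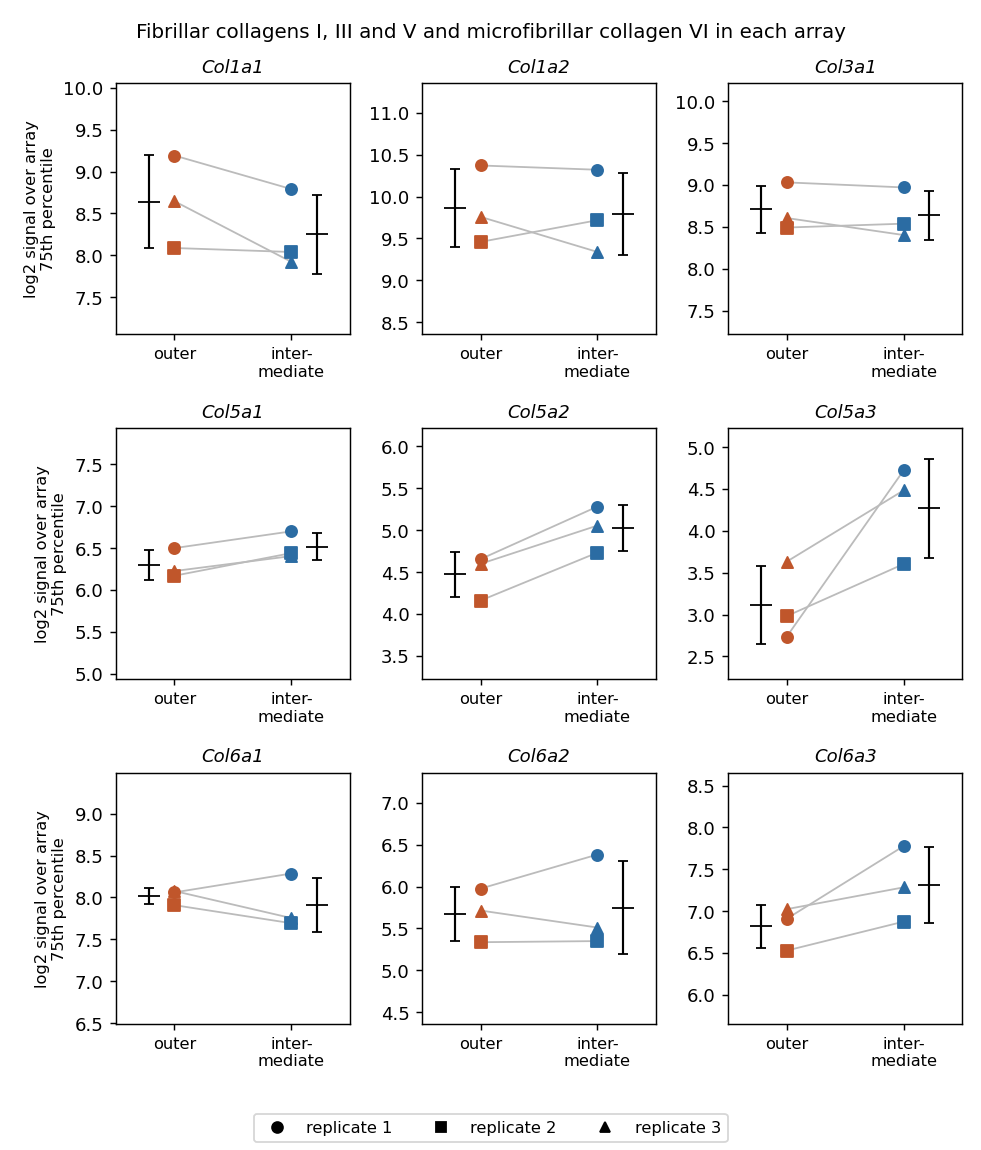
Levels of the chains of collagens I, III, V and VI (log2 of the signal over the 75th percentile of its array, y axis, the same span in each panel) in the outer and the intermediate samples, with marker shapes for replicates, lines joining the same replicate number and black bars for mean ± SD (n = 3). For collagens I, III and VI the groups overlap in every panel, and for collagen V all 3 lines run lower in the outer than in the intermediate sample of the same number.

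Collagen VI is built from the chains of Col6a1, Col6a2 and a further, longer chain, most often that of Col6a3. Of its 6 genes, 3 were tested and none passed, with a median difference of -0.07. Col6a1 had levels of 8.06, 7.91 and 8.08 in the outer samples and 8.29, 7.69 and 7.75 in the intermediate samples. The outer samples lay within the range of the intermediate samples, and the difference was 0.10 (limma adjusted p = 0.812), or -0.29 with arrays scaled to their medians. Col6a3 had levels of 6.91, 6.53 and 7.02 in the outer samples and 7.78, 6.87 and 7.28 in the intermediate samples. It was lower in the outer sample of each replicate number, yet the groups overlapped and the difference of -0.49 did not pass (adjusted p = 0.348). Within an array, the log2 ratio of Col6a3 to Col6a1 was -1.15, -1.38 and -1.05 in the outer samples and -0.51, -0.82 and -0.47 in the intermediate samples, without overlap. The 2 measured probes of Col6a2 differed by -0.07 and 0.30, so its sign depended on the probe. The alternatives to that longer chain, from Col6a4, Col6a5 and Col6a6, were not tested. Col6a4 had a signal well above background on no array, Col6a5 had one on 1 outer array, and Col6a6 on 1 outer and 1 intermediate array.

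Of the 6 FACIT chains, 5 were tested and none passed, with a median difference of 0.08. Col16a1, a FACIT chain found at the surface of fibrils and around cells in cartilage and skin, had levels of 6.90, 6.15 and 6.49 in the outer samples and 5.80, 5.51 and 5.69 in the intermediate samples. Every outer sample lay above every intermediate sample. The difference of 0.85 (SE 0.23; probe on chromosome 4, bases 129776333 to 129776392, mm9) did not pass without the block (limma adjusted p = 0.0979), and it passed with the replicate block (0.0417). On slide 1 alone, with outer replicate 1 as the only outer array, it was 1.23. Col16a1 differed by 0.46 with arrays scaled to their medians (limma adjusted p = 0.288). With quantile normalization it differed by 0.68 (0.252, or 0.0763 with the replicate block), and with normexp by 0.68 (0.174). Its 3 measured probes gave differences from 0.73 to 0.99. Without outer replicate 2, Col16a1 (adjusted p = 0.0493) and Col4a6 (adjusted p = 0.0305) passed as higher in the outer interzone, as did Col4a4 (0.0486), while Col23a1 (0.0352) passed as lower, the last 2 being chains that one of the groups hardly measured.

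Col12a1, a FACIT chain of tendon and other dense connective tissue, had levels of 5.86, 5.30 and 5.72 in the outer samples and 5.42, 5.15 and 5.02 in the intermediate samples. The groups overlapped through outer replicate 2, and the difference was 0.43 (limma adjusted p = 0.306). Col14a1, its close relative, differed by -0.32 (adjusted p = 0.461). Neither differed beyond the spread of the samples. The 6 tendon markers were all tested and 0 passed in limma (1 at an unadjusted p of 0.05), with mean levels from 2.78 to 4.06 on the outer and from 3.70 to 4.34 on the intermediate arrays. Col22a1, known from the junction of muscle and tendon, ranged from 2.17 to 4.23 in the outer samples and from 2.68 to 4.05 in the intermediate samples, a difference of -0.55 (adjusted p = 0.640). Replicate 3 was its highest sample in both groups. Of 9 muscle markers, 7 were tested and 0 passed in limma (0 at an unadjusted p of 0.05), with mean levels from -2.89 to 1.82 on the outer arrays and from -0.48 to 2.74 on the intermediate arrays. Their part in the spread of Col22a1 was not tested. Col20a1 differed by 0.08 (adjusted p = 0.910), and by -0.31 with arrays scaled to their medians. Its tested probe was well above background on 2 outer and 3 intermediate arrays. Another probe of Col20a1, well above background on 2 arrays of each group and so not tested, differed by 1.26. Col19a1 had a signal well above background on no array.

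Of the 4 transmembrane chains, 2 were tested and neither passed. Col25a1, needed in the mouse for motor axons to enter muscle, had levels of 0.33, -0.70 and 0.34 in the outer samples and -2.34, -2.30 and -0.82 in the intermediate samples. The groups came close, at outer replicate 2 and intermediate replicate 3, but did not overlap. The difference was 1.81 (SE 0.48; probe on chromosome 3, bases 130299222 to 130299281, mm9), with a limma adjusted p of 0.0944, or of 0.0426 with the replicate block. With normexp background correction the difference was 1.03 (adjusted p = 0.0682). Of its 4 tested probes, those with signal well above background on each of the 6 arrays gave 1.81 and 1.29. The others differed by 2.63 and 1.72, but were well above background on 2 and 1 of the intermediate arrays, so they were tested through the outer group only. The mean of the 4 passed (adjusted p = 0.0415) and shares this limit. Col23a1, a membrane collagen that can be shed, read -4.09, -3.32 and -4.47 in the outer samples and -2.93, -3.26 and -3.09 in the intermediate samples. It was well above background on 1 outer array and 3 intermediate arrays, the groups did not overlap, and the difference was -0.87 (adjusted p = 0.169), or -0.31 (adjusted p = 0.290) with normexp. Col23a1 was tested only through the intermediate group, so the difference is a description. Col13a1, of neuromuscular junctions, had a signal well above background on no array, and Col17a1, of the hemidesmosomes of epidermis, had one on 2 outer and 2 intermediate arrays. Of 5 Schwann cell markers none was tested, and of 5 epidermal markers 3 were tested and 0 passed in limma (0 at an unadjusted p of 0.05).

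**Figure D5:**
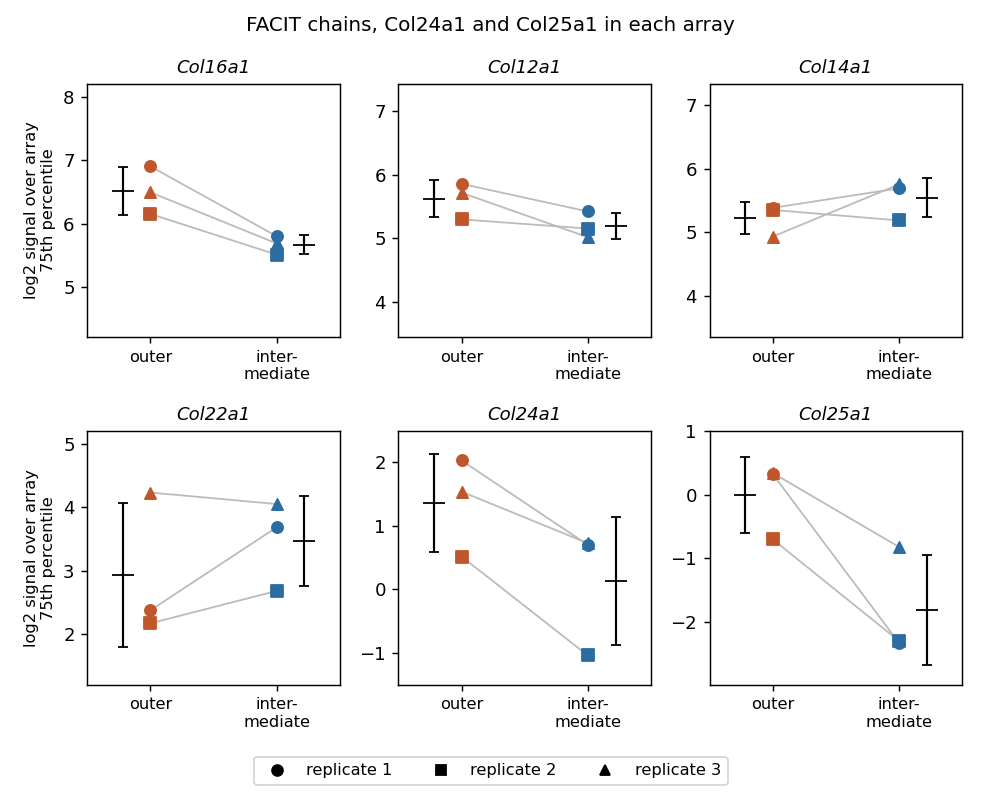
Levels of 4 FACIT chains, Col24a1 and Col25a1 (log2 of the signal over the 75th percentile of its array, y axis, the same span in each panel) in the outer and the intermediate samples, with marker shapes for replicates, lines joining the same replicate number and black bars for mean ± SD (n = 3). Col16a1 and Col25a1 lie higher in every outer than in any intermediate sample, Col24a1 is higher in the outer sample of each number although the groups overlap, and Col12a1, Col14a1 and Col22a1 overlap.

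The 8 chains that were not tested were Col4a3, Col6a4, Col6a5, Col6a6, Col13a1, Col17a1, Col19a1 and Col28a1. On none of the 6 arrays was a signal well above background found for 5 of them, namely Col4a3, Col6a4, Col13a1, Col19a1 and Col28a1. Their signals, which hold no measured level, read from -4.13 to -2.99 on the dim array of outer replicate 1 and from -6.74 to -4.74 on that of outer replicate 2. A dim signal thus read higher on the array of outer replicate 1.

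Values of the chains left out of this set are given beside them. Of the 8 chains of the cartilage fibril and of hypertrophic cartilage, 7 were tested, 5 were higher in the outer interzone and 0 lower, with a median difference of 3.19. The differences of the 4 farthest from 0 were 4.28 for Col9a1, 3.87 for Col9a3, 3.19 for Col2a1 and 3.19 for Col11a2, with limma adjusted p from 0.00673 to 0.0413. Col10a1, the chain of hypertrophic cartilage, had a signal well above background on no array. No test set these chains against the 35.

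Enzymes and chaperones that process collagen were read from a list of 30 genes, of which 29 were tested. Of these, 3 were higher and 3 lower in the outer interzone, and the median difference was -0.04. Adamts2, which removes the N-propeptide of fibrillar procollagens, had levels of 1.24, 2.63 and 1.92 in the outer samples and 4.04, 3.76 and 4.01 in the intermediate samples. Every outer sample was below every intermediate sample, and the difference was -2.01 (limma adjusted p = 0.0286). Lox and Loxl1, which oxidise lysines so that fibres can crosslink, differed by -1.46 (adjusted p = 0.0140) and -1.49 (adjusted p = 0.0193). Pcolce2, an enhancer of C-propeptide removal, was higher by 1.75 (adjusted p = 0.0182). The other 2 that passed, named after their values were seen, were Loxl3 with 1.16, another lysyl oxidase, and P4ha2 with 1.10, a prolyl hydroxylase subunit. Serpinh1, the collagen chaperone Hsp47, which serves all families, differed by -0.04 (adjusted p = 0.916).

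Of 12 collagen receptors, 11 were tested, and 1 was higher and 0 lower in the outer interzone, with a median difference of -0.16. The one was Itga10, an integrin subunit of cartilage cells that binds collagen, with levels of 3.17, 2.63 and 3.50 in the outer samples and -0.30, -0.06 and 0.59 in the intermediate samples. The groups lay far apart, and the difference was 3.03 (limma adjusted p = 0.00818). The receptors of fibrillar collagen Itga11 (difference 0.29, adjusted p = 0.608) and Ddr2 (difference -0.27, adjusted p = 0.490) did not pass.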

How the data were processed

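Total RNA of the outer and the intermediate interzone of mouse embryos was amplified, labelled with Cy3 and hybridised to 6 arrays, per the labels' protocols. Per the file headers, the scans were quantified by Agilent's Feature Extraction software, version 10.7.3.1. Partek 6.11.0321 is also named, per the submitters' processing notes, without its step. Each deposited scanner file holds a background-subtracted, detrended signal intensity per spot. The authors' deposited series table holds an intensity equal to that signal divided by 1 constant per array, which sets each median to 1.

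The 59305 non-control spots gave 55681 probes. Outlier spots were left out, spots of a probe were averaged as log2, and 9 probes were dropped. The members have 59 probes, whose positions are those of the files (mm9), and exons and UTRs were not used here. Members were found by the file's gene name. Other names were updated through RefSeq (GRCm38.p6, names only): of 28390 probes with an accession 26762 matched and 2878 changed. The log2 signal minus the array's 75th percentile was tested two-sided by lmFit and eBayes of limma 3.58.1 (R 4.3.3), adjusted over all genes by Benjamini-Hochberg and with the brightest tested probe per gene. The procedure was tested on simulated data.

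The members, families and lists were chosen with earlier results of these data known. Values in each sample are given for called members and, in each family, for the 2 tested members with the highest mean level. From the lists on processing, receptors and cartilage fibrils up to 4 called genes with the largest difference are named. Other members and genes were singled out after their values were seen.

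Each replicate is 1 embryo, per the series' design text, and the labels do not say whether the same number in both groups marks the same embryo. After removal of group means, the correlation across genes between samples of the same number was 0.563, 0.480 and 0.372, all above 0.1. Between samples of different number it ranged from -0.534 to 0.114. The numbers were taken to pair the samples. Replicate 1 was the dimmest array of both groups, and the part of this in its correlation was not tested. The fit above has no block, and results with a replicate block are given where they change a call. The alternatives were another scaling (each array's median, the authors' deposited values, quantile), normexp (offset 50) before quantile normalization, filters that keep all genes or those measured on all 6 arrays, averaging the probes of each gene, a replicate block with and without quantile normalization, a slide block, slide 1 alone, and leaving out each sample. P-values of the fit without a block measure the spread between 3 embryos a group. Those with the replicate block measure the spread of the differences between same-numbered samples. The number of 3 embryos a group limits the precision of both.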

Additional observations from a re-analysis of the deposited data

How the results depend on the processing

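Over all genes 729 were called, with 0 chains higher and 3 lower in the outer interzone. Scaling to the median and the authors' deposited values each gave 1095 genes, 1 chain higher (Col4a4, tested through the outer group only) and 3 lower. Quantile normalization gave 451 genes and 1 chain lower, normexp 920 and 3, and a filter on all 6 arrays 460 and 3, each with 0 higher. With no filter, which adds dim genes to 35077 tested, limma called 0 genes, with 4268 at an unadjusted p under 0.05, and 0 chains, with 9 at an unadjusted p under 0.05. The mean of a gene's probes added 1 chain as higher (Col25a1). The replicate block gave 1636 genes, 4 chains higher and 3 lower, and changed no other call of a chain. With quantile normalization it gave 57 genes, with 5447 at an unadjusted p under 0.05, and 0 chains, with 13 at an unadjusted p under 0.05. The slide block gave 1215 genes, 3 chains higher and 2 lower, and slide 1 alone 1314 genes, 2 higher and 2 lower. Leaving out 1 sample gave 66 to 1111 genes, 0 to 3 chains higher and 0 to 4 lower. The cause of these changes was not tested. No chain that passed changed sign under any alternative.

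The sign of 8 chains, none of which passed, differed under some alternatives other than leaving out 1 sample. That of Col7a1, which did not pass either, differed only when 1 sample was left out. Scaling to the median moves every gene by the same amount, and the median of all genes with them (0.10 to -0.29). A flip under that scaling comes with this shift of all genes. Which scaling suits these samples better was not tested. Col20a1 differed by -0.31 after scaling to the median and in the deposited values, -0.15 after quantile normalization, -0.027 with normexp and -0.26 with slide 1 alone or as a block. Col8a1 gave -0.36, -0.033, -0.028 and -0.57 under these. Col1a2 gave -0.32, -0.22 and -0.30, Col3a1 gave -0.32, -0.25 and -0.27, and Col6a1 gave -0.29, -0.13 and -0.053 under the first 3. After scaling to the median Col15a1 gave -0.077 and Col1a1 -0.00062. Col6a2 gave 0.11 as the mean of its probes and 0.23 with slide 1 alone or as a block. Quantile values were the same with the replicate block. Leaving out 1 sample gave ranges that cross 0 for Col20a1 (-0.26 to 0.25), Col8a1 (-0.28 to 0.33), Col7a1 (-0.96 to 0.62), Col1a2 (-0.18 to 0.33), Col3a1 (-0.088 to 0.24), Col6a1 (-0.0048 to 0.29) and Col6a2 (-0.27 to 0.25). Signal over background limits the 8 untested chains.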

Other observations

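A chain outside the set by its name on the arrays is called Col26a1 in RefSeq. It encodes a collagen known from testis and ovary, and its levels were 3.62, 5.46 and 5.13 in the outer samples and 4.95, 5.14 and 5.49 in the intermediate samples. Outer replicate 1 lay below the other 5 samples, and the difference was -0.45 (limma adjusted p = 0.618).

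Within an array, the log2 ratio of Col1a1 to Col1a2 was -1.18, -1.37 and -1.11 in the outer samples and -1.53, -1.68 and -1.42 in the intermediate samples. The groups did not overlap, with a shift of 0.32, although neither chain passed by itself. The ratio of Col5a2 to Col5a1 was lower in the outer samples by 0.34 (difference -0.34), with overlap. The ratios were chosen after the values were seen, and no test was made of them.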
